A study of Danio rerio with 36 samples.

Results

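The carrier-control (CC) larvae of a zebrafish exposure study were compared between its 2 series, one run for tetrabromobisphenol A (TBBPA) and one for bisphenol A (BPA). The 6 CC libraries, 3 of the TBBPA series and 3 of the BPA series, were taken from the 36 libraries of the study by their labels. All were pools of 20 whole, phenotypically normal AB/Tub hybrid larvae, held in wells from 72 to 120 h postfertilization (hpf) and frozen. The study's methods give the carrier as 0.5% DMSO, and the labels of the CC samples read Carrier Control 0.5%, followed by the chemical of the series. The carrier description was used here, and neither bisphenol was taken to be present in the CC. Larvae at the 2 lowest concentrations of each chemical (0.000292 and 0.00292 µM TBBPA, against 0.00483 and 0.0483 µM BPA), handled in the same way and with 3 libraries each, were used to see whether the differences recurred. The replicates of a group came from different clutches. The clutches, the exposure runs and the library preparations of the TBBPA CC and the BPA CC cannot be told apart from the series itself, and a difference between the 2 sets is not an effect of either chemical.

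Gene-level reads were recovered from the deposited normalized counts, and each library was rescaled to CPM, its reads at a fixed common total, over the 25531 genes held in both tables, which removes the separate scaling of the 2 tables. Of these genes, 25175 had at least 1 read in a CC library and 20751 had a read in all 6. A further 1108 genes of the TBBPA table and 325 of the BPA table had no row in the other table and held at most 295 reads in all in any CC library. Gene names were found for 23784 of the shared genes.

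At 120 hpf a zebrafish larva has hatched, swims and hunts, and has used up most of its yolk. The trunk is largely fast skeletal muscle, built from actin, myosin, tropomyosin, troponin and parvalbumin, and its ATP comes from mitochondria, whose small genome encodes subunits of respiratory complexes and of ATP synthase. The larval liver already secretes plasma proteins: clotting factors, carriers of iron, heme and lipid, protease inhibitors, and the complement proteins that tag and lyse microbes. Lipoprotein genes are used by the yolk syncytial layer, the liver and the intestine to export lipid. In pooled whole larvae, fewer cells of a type and less RNA per cell cannot be told apart.

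Reads on genes numbered 7865327, 9472172 and 8448028 in the TBBPA CC, against 7541899, 7087386 and 16520859 in the BPA CC. The 3 TBBPA CC libraries lay close together, with 155 to 406 of the 18376 tested genes at least 2-fold apart in a pair of libraries, whereas the BPA CC pairs differed at 472 to 1933 genes and pairs across the 2 sets at 924 to 3741. Within the BPA CC, replicate 2 stood apart from the other 2 libraries at 1933 and 1917 genes. It had the highest summed level of the lens list (11479, 13441 and 9253 CPM in the TBBPA CC, against 11544, 25914 and 9234 CPM in the BPA CC) and of the exocrine pancreas list (679, 526 and 391 CPM in the TBBPA CC, against 360.1, 1404 and 177 CPM in the BPA CC). Its summed skin list was the lowest (12467, 13422 and 14230.2 CPM in the TBBPA CC, against 14264, 6658 and 12154 CPM in the BPA CC).

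The most abundant genes of the control larvae were those of fast muscle and of mitochondrial respiration. The 25 genes with the highest mean CPM took 21.3, 21.0 and 20.0% of the reads in the TBBPA CC, against 23.9, 27.5 and 23.7% in the BPA CC. Of the 25 genes, 11 were in the fast skeletal muscle list and 7 were mitochondrially encoded, and 21 were among the 25 highest of both sets. These ranks order reads, not transcripts, because gene lengths were not used here and a long transcript yields more reads.

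The first in order was MT-CO1, which encodes the catalytic subunit of cytochrome c oxidase, with 22724, 25293 and 21871 CPM in the TBBPA CC, against 32055, 33129 and 27963 CPM in the BPA CC. The actin gene actc1b followed at 24118, 20811 and 18536 CPM in the TBBPA CC, against 18095, 26076 and 20291 CPM in the BPA CC, with no separation of the sets (adjusted p = 0.966). Myosin heavy chain myhz1.1 stood at 16362, 13991 and 12542 CPM in the TBBPA CC, against 13758, 23416 and 19464 CPM in the BPA CC, and BPA CC replicate 2 was the highest of the 6. Parvalbumins buffer the calcium that starts each contraction. For pvalb1 the levels were 16012, 15172 and 16083 CPM in the TBBPA CC, against 12273, 15423 and 12274 CPM in the BPA CC, and for its relative pvalb2 they were 11033, 11501 and 11436 CPM in the TBBPA CC, against 6154, 7760.2 and 6581 CPM in the BPA CC. The pvalb2 libraries did not overlap, with a log2 fold change of 0.74 that stayed under 2-fold. Tropomyosin tpma lay the other way at 10664, 11064 and 10523 CPM in the TBBPA CC, against 14728, 18037 and 16203 CPM in the BPA CC (log2 fold change −0.60, SE 0.14, adjusted p = 0.0245). Troponin T TNNT3 (ENSDARG00000068457) had 5132, 5141 and 4587 CPM in the TBBPA CC, against 7004, 10058 and 8695 CPM in the BPA CC (log2 fold change −0.78, SE 0.16, adjusted p = 0.0132), also without overlap and also under 2-fold. Outside muscle and mitochondria, the 25 included the translation elongation factors eef1a1l1 and eef2b, the skin keratin krt91, cytoplasmic actin actb2, the mitochondrial ADP/ATP carrier SLC25A5 and the chaperone HSP90AB1. Elongation factor eef1a1l1 had 10971, 10614 and 10514 CPM in the TBBPA CC, against 9643, 9282 and 9086 CPM in the BPA CC, a narrow range across all 6 libraries.

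**Figure D1:**
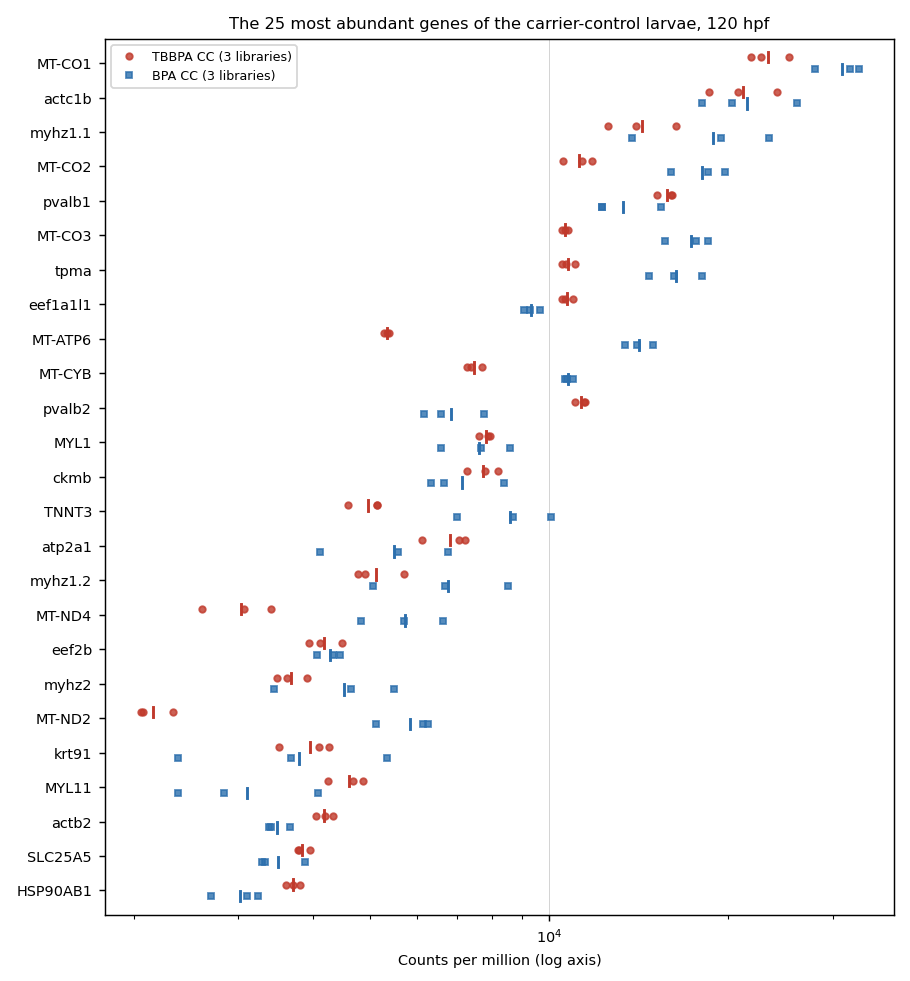
The 25 most abundant genes, ordered by mean CPM over the 6 control libraries, with CPM on a log axis. Circles are the 3 TBBPA CC libraries, squares the 3 BPA CC libraries and vertical ticks the mean of each set. The sets do not overlap in 14 of the 25 genes, against 40.3% of all tested genes, and lie farthest apart in MT-ATP6 and MT-ND2.

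Reads were also summed over the fixed tissue lists. The lists differ in size and in how many genes matched an ID, so the sums are not shares of tissue. The 26 fast muscle genes summed to 12.97, 12.2 and 11.5% of the reads in the TBBPA CC, against 10.95, 15.5 and 12.7% in the BPA CC. Cytoplasmic ribosomal protein genes, in a list that also holds the 2 elongation factors, took 10.15, 9.61 and 10.3% in the TBBPA CC, against 9.40, 9.54 and 8.24% in the BPA CC. The muscle sums overlapped, while each TBBPA CC library was above each BPA CC library for the ribosomal list. The eye gave 2 of the next largest tissue sums: photoreceptor genes took 1.25, 1.17 and 1.15% of the reads in the TBBPA CC, against 0.965, 1.26 and 1.02% in the BPA CC, and lens genes 1.15, 1.34 and 0.925% in the TBBPA CC, against 1.15, 2.59 and 0.923% in the BPA CC. Rod opsin rho had 1508, 1393 and 1179 CPM in the TBBPA CC, against 1603, 2287 and 1579 CPM in the BPA CC, and UV cone opsin opn1sw1 2594, 2125 and 2248 CPM in the TBBPA CC, against 1229.8, 1866 and 1345 CPM in the BPA CC. Skin keratins and neuronal genes were of the same order, for example cyt1 with 2317, 2886 and 2767 CPM in the TBBPA CC, against 2937, 1497 and 2927 CPM in the BPA CC and the synaptic gene SNAP25 (ENSDARG00000020609) with 791, 799 and 826 CPM in the TBBPA CC, against 1102, 769.8 and 960.0 CPM in the BPA CC. Reads on the matched blood and immune genes were few: the globin hbae3 had 79.6, 42.2 and 52.1 CPM in the TBBPA CC, against 36.2, 34.1 and 80.0 CPM in the BPA CC, and the neutrophil protease npsn 11.6, 10.6 and 9.35 CPM in the TBBPA CC, against 5.83, 9.31 and 8.35 CPM in the BPA CC. Of 21 listed erythrocyte genes 5 matched no ID, as did 6 of 25 neutrophil and macrophage genes. Globin levels may also depend on how reads shared by near-identical copies were counted, which was not tested. Of the 434 gene IDs in the 22 cell type lists, 371 passed the filter for testing (a mean of at least 1 CPM), and 4 had no read in any of the 6 libraries. None of the 4 vitellogenin genes, which encode the maternal yolk protein, passed the filter, and vtg1 had no read in the TBBPA CC and at most 0.133 CPM in a BPA CC library.

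Between the 2 sets, 695 of 18376 tested genes (3.78%) differed at an adjusted p under 0.05 and by at least 2-fold, 618 of them higher (3.36%) and 77 lower (0.419%) in the TBBPA CC. The test was limma with a trend on log2(CPM + 0.5), so that the changes of genes near 1 CPM are understated. This split depended on the scale. The median tested gene had a log2 fold change of 0.23 on the CPM scale, and of 0.03 after TMM scaling, which sets the bulk of the genes equal. After TMM, 303 genes were higher (1.65%) and 220 lower (1.2%). Of the 695, 380 were also called after TMM, so changes are set beside the median of 0.23, which was 0.12 without BPA CC replicate 2. The 3 libraries of one set did not overlap those of the other in 7400 of all tested genes (40.3%) and in 693 of the 695, a count that the choice of the 695 on the same libraries nearly fixes. A test of a change over 2-fold, rather than of any change in genes past 2-fold, called 0 genes (limma treat; 141 at an unadjusted p under 0.05), while edgeR's quasi-likelihood test called 650 genes past 2-fold. The count was 359, 257 and 366 without TBBPA CC replicate 1, 2 and 3, and 605, 744 and 1080 without BPA CC replicate 1, 2 and 3. The genes higher in the TBBPA CC numbered 301, 218 and 307 without TBBPA CC replicate 1, 2 and 3, and 542, 623 and 1003 without BPA CC replicate 1, 2 and 3. Those lower numbered 58, 39 and 59 in the same order of TBBPA CC replicates, and 63, 121 and 77 in that of BPA CC replicates.

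Genes of liver secretion led the genes that were higher in the TBBPA CC. The members of the fixed lists were chosen with earlier results of these data known, which may raise the shares given here and below. In the liver list, 17 of 25 tested members were higher, against 3.36% of all tested genes, and none lower. The median log2 fold change was 1.25, against 0.23 for all tested genes. After TMM scaling, 15 were higher and the median was 1.03. The summed list overlapped nonetheless, at 4381, 3259.8 and 2565 CPM in the TBBPA CC, against 2405, 2503 and 2769 CPM in the BPA CC, and its most abundant members were not called.

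**Figure D2:**
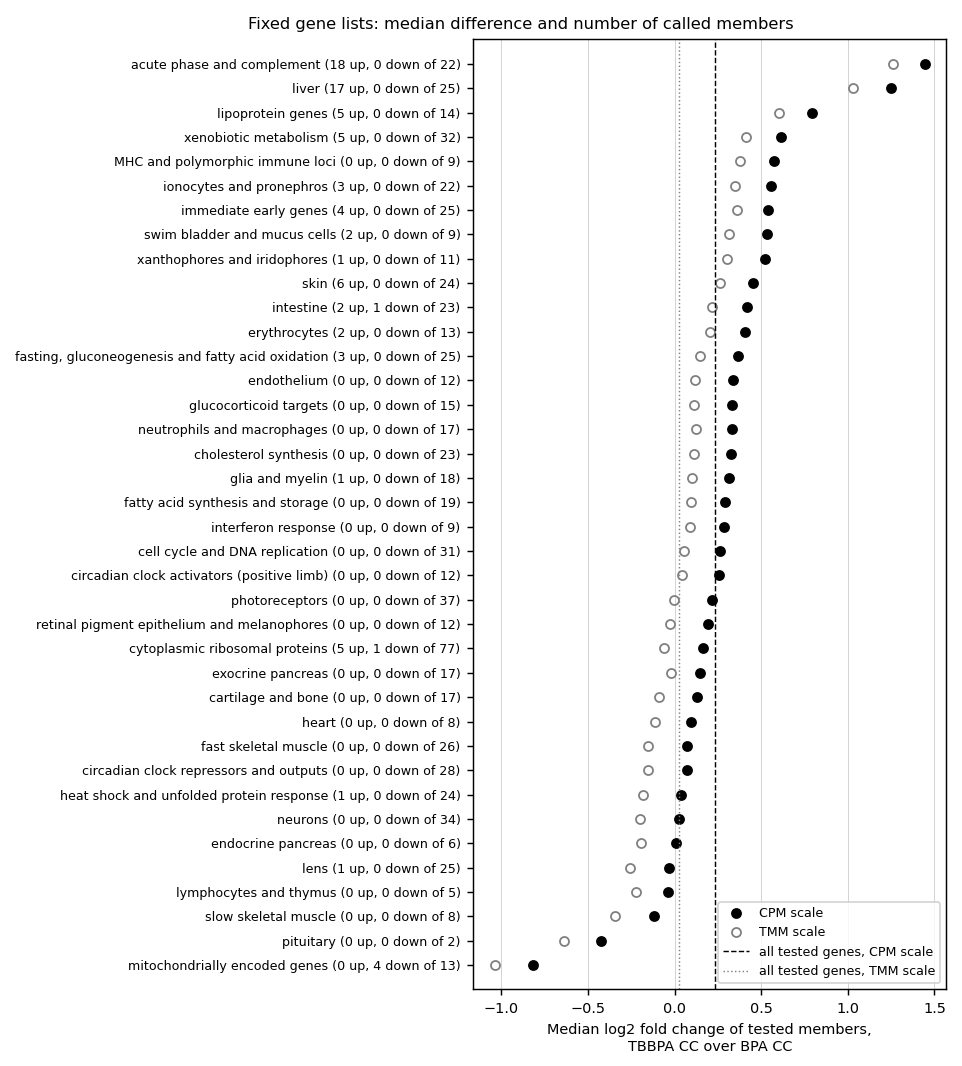
Median log2 fold change (TBBPA CC over BPA CC) of the tested members of each fixed gene list, on the CPM scale (filled) and on the TMM scale (open), with the called members in brackets. Dashed and dotted lines mark the medians of all tested genes, 0.23 and 0.03; the acute phase and complement and the liver lists lie farthest right, and the mitochondrially encoded genes farthest left.

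Among the carriers, hemopexin hpxa, which binds free heme, had 11.4, 4.01 and 5.45 CPM in the TBBPA CC, against 0.133, 0.423 and 1.27 CPM in the BPA CC (log2 fold change 2.76, SE 0.45, adjusted p = 0.00632). In BPA CC replicate 1 this was 1 read. Transferrin tfa, the iron carrier, had 326, 221 and 159.6 CPM in the TBBPA CC, against 96.4, 82.1 and 106 CPM in the BPA CC (log2 fold change 1.25, SE 0.22, adjusted p = 0.00836). The libraries of the 2 sets did not overlap for either gene, as in 693 of the 695 genes called on the same libraries. Within the TBBPA CC replicate 1 was the highest for both.

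Fibrinogen is built from 3 chains, and the 3 genes did not move alike. The gamma chain gene FGG had 29.1, 26.0 and 16.1 CPM in the TBBPA CC, against 3.31, 5.22 and 2.48 CPM in the BPA CC (log2 fold change 2.55, SE 0.29, adjusted p = 0.00233). The alpha chain gene fga had 88.7, 64.9 and 52.3 CPM in the TBBPA CC, against 22.0, 20.2 and 30.1 CPM in the BPA CC (log2 fold change 1.48, SE 0.21, adjusted p = 0.00384). The beta chain gene FGB had 65.6, 49.8 and 35.5 CPM in the TBBPA CC, against 34.3, 36.5 and 38.3 CPM in the BPA CC, and its sets overlapped (log2 fold change 0.42, adjusted p = 0.169). Other clotting genes outside the list were among the largest changes. Antithrombin SERPINC1, which inhibits thrombin, had 10.8, 8.02 and 6.04 CPM in the TBBPA CC, against 0.796, 0.423 and 1.09 CPM in the BPA CC (log2 fold change 2.79, SE 0.30, adjusted p = 0.00187). The factor VII relative f7i had 10.9, 7.50 and 5.09 CPM in the TBBPA CC, against 1.46, 1.13 and 1.03 CPM in the BPA CC (log2 fold change 2.24, SE 0.29, adjusted p = 0.00305).

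The protease inhibitor gene a2ml, an alpha-2-macroglobulin relative, had 32.0, 32.0 and 17.8 CPM in the TBBPA CC, against 5.304, 2.54 and 5.21 CPM in the BPA CC (log2 fold change 2.53, SE 0.31, adjusted p = 0.00267). The precursor gene ambp, which yields a lipocalin and a protease inhibitor, had 24.9, 21.9 and 14.9 CPM in the TBBPA CC, against 4.38, 7.76 and 4.72 CPM in the BPA CC (log2 fold change 1.79, SE 0.26, adjusted p = 0.00405). Serpin serpina1 had 191, 149 and 114 CPM in the TBBPA CC, against 52.8, 52.6 and 85.4 CPM in the BPA CC (log2 fold change 1.25, SE 0.23, adjusted p = 0.00863), and its neighbor in name serpina1l 163, 121 and 71.3 CPM in the TBBPA CC, against 67.1, 43.6 and 58.2 CPM in the BPA CC (log2 fold change 1.01, SE 0.27, adjusted p = 0.0359), close to the 2-fold limit. In all 4 genes each TBBPA CC library lay above each BPA CC library, which their call on the same libraries nearly fixes.

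Of the 8 tested liver genes that were not called, fetub was the most abundant. This fetuin had 1421, 940.1 and 628 CPM in the TBBPA CC, against 973, 1094 and 1216 CPM in the BPA CC, so the sets overlapped (log2 fold change −0.21, adjusted p = 0.579). RBP4, the retinol carrier, had 864, 734 and 776 CPM in the TBBPA CC, against 700.1, 647 and 715 CPM in the BPA CC (log2 fold change 0.20, adjusted p = 0.215). The liver fatty acid-binding protein gene fabp10a, a standard marker of zebrafish hepatocytes, had 589, 441 and 360.1 CPM in the TBBPA CC, against 266, 315 and 317 CPM in the BPA CC, without overlap but under 2-fold (log2 fold change 0.60, SE 0.17, adjusted p = 0.0406). The other 5 were TTR, CP, FGB, ahsg1 and 1 of the 2 VTN genes, with log2 fold changes from 0.14 to 0.75. Without TBBPA CC replicate 1 or 2, 11 and 9 liver genes were called, and without any other library 14 to 17.

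**Figure D3:**
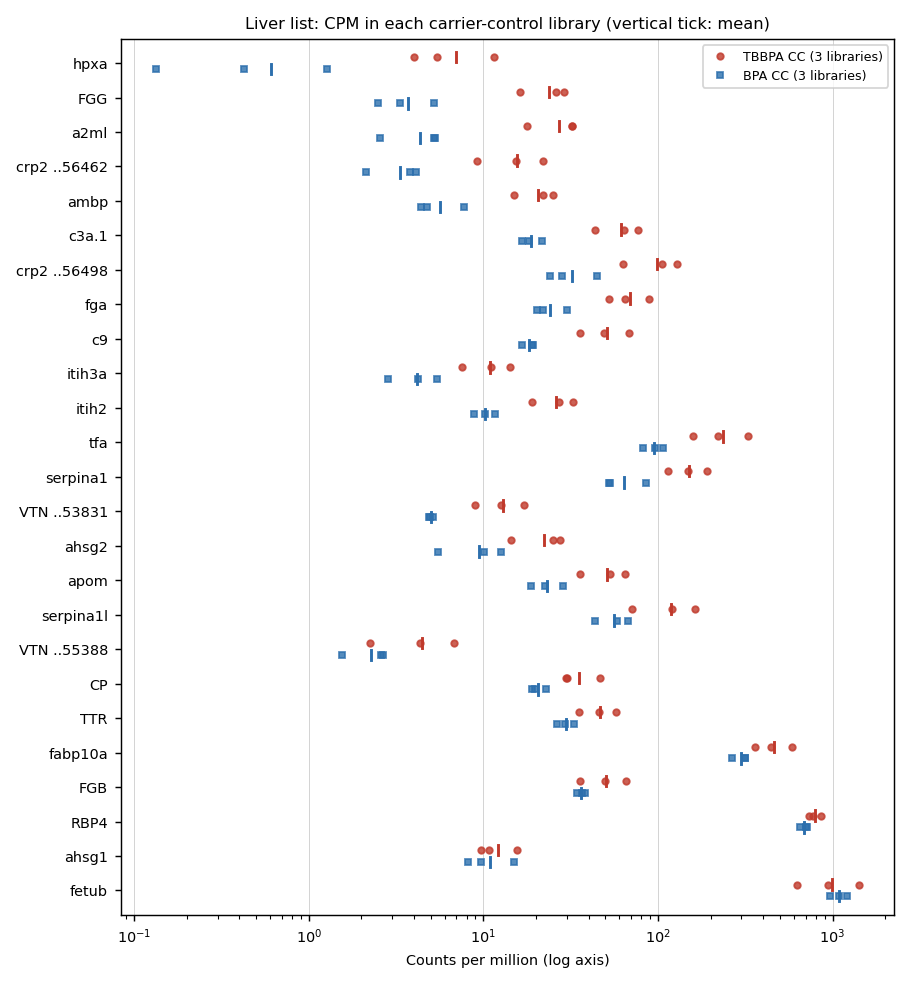
CPM of the 25 tested liver genes in each control library, on a log axis, ordered from the largest log2 fold change (hpxa) to the smallest (fetub). Circles are TBBPA CC libraries, squares BPA CC libraries and ticks the means; fetub, RBP4 and fabp10a, the 3 most abundant, lie among the lower rows.

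Outside the lists, upp2, a uridine phosphorylase, had the largest log2 fold change of the 695 called genes on the log2(CPM + 0.5) scale, with 18.4, 12.9 and 9.94 CPM in the TBBPA CC, against 1.59, 0.988 and 1.94 CPM in the BPA CC (log2 fold change 2.82, SE 0.28, adjusted p = 0.00179). ABCB11, the bile salt export pump of hepatocytes, had 31.4, 21.9 and 15.5 CPM in the TBBPA CC, against 3.85, 2.96 and 5.33 CPM in the BPA CC (log2 fold change 2.34, SE 0.28, adjusted p = 0.00267).

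The acute phase and complement list moved the same way, with 18 of 22 tested members higher, against 3.36% of all tested genes, and none lower. The median was 1.44 (1.26 after TMM, with 18 higher again). Of its tested members, 4 are also in the liver list. The summed level was 575, 449.6 and 311 CPM in the TBBPA CC, against 129.9, 163 and 148 CPM in the BPA CC, which did not overlap. Without TBBPA CC replicate 2, 7 members were called, and without replicate 1, 10, whereas leaving out TBBPA CC replicate 3 or any BPA CC library left 17 or 18.

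Complement component C3, on which the activation routes converge, is present in several near-identical copies. Their levels may depend on how reads shared between copies were counted. The copy c3a.3 had 34.7, 31.4 and 27.11 CPM in the TBBPA CC, against 5.304, 6.21 and 5.81 CPM in the BPA CC (log2 fold change 2.33, SE 0.16, adjusted p = 0.00121), and c3a.1, the more abundant, 76.4, 63.7 and 43.3 CPM in the TBBPA CC, against 16.7, 21.6 and 18.2 CPM in the BPA CC (log2 fold change 1.64, SE 0.20, adjusted p = 0.00288). Both were narrow in the BPA CC and wider in the TBBPA CC. In the terminal pathway, c5, which starts the membrane attack complex, had 12.8, 11.4 and 4.74 CPM in the TBBPA CC, against 1.72, 1.83 and 1.76 CPM in the BPA CC (log2 fold change 2.05, SE 0.34, adjusted p = 0.00652). The pore-forming c9 had 68.1, 49.1 and 35.5 CPM in the TBBPA CC, against 16.6, 19.05 and 19.1 CPM in the BPA CC (log2 fold change 1.41, SE 0.21, adjusted p = 0.0048). The earlier subunits c7a and c7b were not called, with log2 fold changes of 0.45 and 0.62. Factor B cfb, of the alternative pathway, had 13.7, 13.2 and 7.58 CPM in the TBBPA CC, against 3.98, 2.399 and 3.57 CPM in the BPA CC (log2 fold change 1.63, SE 0.28, adjusted p = 0.00709). The pathway's inhibitor factor H cfh, a name not in the list, had 17.2, 13.2 and 8.64 CPM in the TBBPA CC, against 1.72, 1.98 and 1.76 CPM in the BPA CC (log2 fold change 2.49, SE 0.26, adjusted p = 0.00186).

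Hepcidin hamp, the hormone that lowers iron export, had 10.0, 8.97 and 8.64 CPM in the TBBPA CC, against 0.663, 1.55 and 1.76 CPM in the BPA CC (log2 fold change 2.47, SE 0.28, adjusted p = 0.00233), with a narrow TBBPA CC range. The C-reactive protein copy crp2 (ENSDARG00000056498) had 129, 105 and 63.1 CPM in the TBBPA CC, against 28.1, 44.7 and 24.0 CPM in the BPA CC (log2 fold change 1.59, SE 0.28, adjusted p = 0.00801). Another copy of that name (ENSDARG00000056462) had 21.9, 15.4 and 9.23 CPM in the TBBPA CC, against 4.11, 3.81 and 2.12 CPM in the BPA CC (log2 fold change 2.02, SE 0.33, adjusted p = 0.00632), and crp1 1.53, 2.01 and 1.302 CPM in the TBBPA CC, against 1.46, 0.423 and 2.06 CPM in the BPA CC, which overlapped. Of the markers of immune cells and immune loci, none of 17 neutrophil and macrophage genes, 9 interferon genes or 9 genes of the MHC list was called, with medians of 0.33, 0.28 and 0.57. With 3.78% of all tested genes called, a count of 0 is near that share in lists this short. Without BPA CC replicate 3, 3 MHC genes and 1 neutrophil and macrophage gene were called higher. In the MHC list b2ml, a beta-2-microglobulin gene for the light chain of MHC class I, had 169, 174 and 183 CPM in the TBBPA CC, against 94.0, 75.9 and 105 CPM in the BPA CC, without overlap and just under 2-fold (log2 fold change 0.95, SE 0.13, adjusted p = 0.00345).

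Of 14 tested lipoprotein genes, 5 were higher, against 3.36% of all tested genes, with a list median of 0.79 (0.60 after TMM). Apolipoprotein gene apoa2 had 969, 758 and 625 CPM in the TBBPA CC, against 249.5, 262 and 317 CPM in the BPA CC (log2 fold change 1.49, SE 0.16, adjusted p = 0.00202). The structural lipoprotein genes were APOB, at 28.1, 18.6 and 16.1 CPM in the TBBPA CC, against 5.04, 5.22 and 7.45 CPM in the BPA CC (log2 fold change 1.72, SE 0.24, adjusted p = 0.00361), and apobb.1, at 478, 409 and 460.4 CPM in the TBBPA CC, against 80.5, 233 and 229 CPM in the BPA CC (log2 fold change 1.46, SE 0.34, adjusted p = 0.0222). MTTP, the transfer protein that loads lipid onto them, had 13.7, 9.40 and 13.4 CPM in the TBBPA CC, against 3.05, 5.36 and 6.78 CPM in the BPA CC (log2 fold change 1.23, SE 0.28, adjusted p = 0.0208). In apobb.1 and MTTP, BPA CC replicate 1 was the lowest library. The most abundant member, apoa1b, had 3718, 2393 and 1849 CPM in the TBBPA CC, against 1869, 1719 and 2258 CPM in the BPA CC, and its sets overlapped (log2 fold change 0.39, adjusted p = 0.252). The number called was 3 to 6 with 1 library left out.

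Mitochondrially encoded genes were lower in the TBBPA CC as a share of reads and differed gene by gene. Together they took 6.70, 7.23 and 6.73% of the reads in the TBBPA CC, against 12.1, 11.9 and 10.4% in the BPA CC. Of the 13 genes, 4 were called lower, against 0.419% of all tested genes, and none higher, with a median log2 fold change of −0.82. After TMM 7 were lower and the median was −1.04. Genes of neighboring or overlapping mitochondrial position share transcripts, and whether the counting used strand is not given in the sources used here, so reads of MT-ND6, which lies on the opposite strand, and of the overlapping pairs mt-nd4l with MT-ND4 and mt-atp8 with MT-ATP6 may be mixed.

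Complex I genes spread the most. MT-ND6 had 1011, 938 and 843 CPM in the TBBPA CC, against 3520.2, 3803 and 2867 CPM in the BPA CC (log2 fold change −1.86, SE 0.14, adjusted p = 0.00121). The short mt-nd4l had 191, 261 and 224 CPM in the TBBPA CC, against 734, 754 and 614 CPM in the BPA CC (log2 fold change −1.64, SE 0.14, adjusted p = 0.00153), and MT-ND2 2076, 2334 and 2055 CPM in the TBBPA CC, against 6256, 6140.4 and 5110.2 CPM in the BPA CC (log2 fold change −1.43, SE 0.13, adjusted p = 0.00153). The means in the BPA CC were 3.65, 3.11 and 2.71 times those in the TBBPA CC. The libraries did not overlap, which the call of these genes on the same libraries nearly fixes. MT-ND1, MT-ND4 and MT-ND5 lay between, with log2 fold changes of −0.94, −0.91 and −0.82, past the adjusted p but under 2-fold. MT-ND3 went the other way, with 449, 462 and 510.2 CPM in the TBBPA CC, against 233, 299.8 and 204 CPM in the BPA CC (log2 fold change 0.96, SE 0.14, adjusted p = 0.00458). It was not overlapping, just under 2-fold, and was called higher without TBBPA CC replicate 1 and without BPA CC replicate 2.

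Of the ATP synthase genes, MT-ATP6 had 5283, 5381 and 5338 CPM in the TBBPA CC, against 14967, 14045 and 13410.4 CPM in the BPA CC (log2 fold change −1.41, SE 0.13, adjusted p = 0.00153), while mt-atp8, the short gene before it, had 97.6, 72.1 and 140.0 CPM in the TBBPA CC, against 123, 135 and 90.4 CPM in the BPA CC and overlapped. The cytochrome c oxidase genes differed less. MT-CO3 had a log2 fold change of −0.70, MT-CO2 of −0.68 and MT-CO1 of −0.41 (adjusted p = 0.107). MT-CYB, of complex III, had 7281, 7717 and 7388 CPM in the TBBPA CC, against 10959, 10699 and 10621 CPM in the BPA CC (log2 fold change −0.53, SE 0.13, adjusted p = 0.0234). The 4 called genes stayed called when any 1 library was left out and under each other scale, filter and test tried, other than the test of a change over 2-fold. A scale that left out these genes and the 25 most abundant ones called 6 of them lower.

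**Figure D4:**
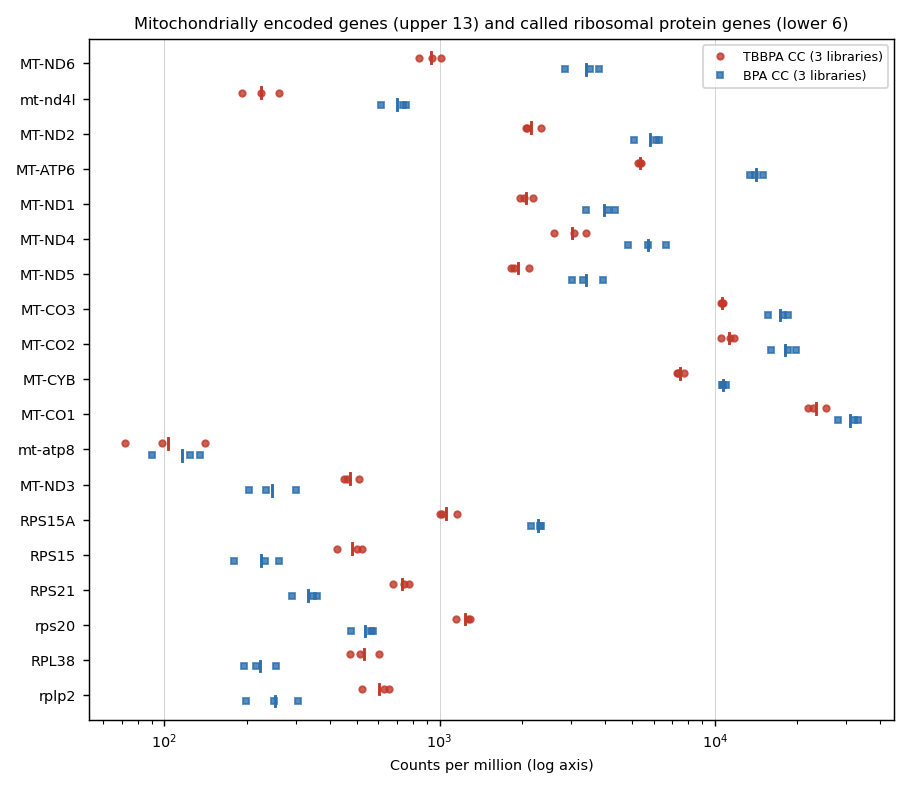
CPM on a log axis of the 13 mitochondrially encoded genes and of the 6 ribosomal protein genes called between the sets, in each control library. Circles are TBBPA CC libraries, squares BPA CC libraries and ticks the means; MT-ND3 lies opposite to the 4 called mitochondrial genes, and RPS15A opposite to the other 5 ribosomal protein genes.

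Among the 77 ribosomal protein and elongation factor genes, 5 were higher and 1 lower, against 3.36% higher and 0.419% lower of all tested genes. Their median was 0.16 (−0.06 after TMM), against 0.23 for all genes. The most abundant called gene that was higher in the TBBPA CC was rps20, at 1269, 1149.9 and 1296 CPM in the TBBPA CC, against 562, 575 and 476 CPM in the BPA CC (log2 fold change 1.21, SE 0.11, adjusted p = 0.00176). RPS21 had 745, 680.2 and 773 CPM in the TBBPA CC, against 358, 346 and 291 CPM in the BPA CC (log2 fold change 1.15, SE 0.11, adjusted p = 0.00179), and rplp2, of the ribosomal stalk, 657, 524 and 629 CPM in the TBBPA CC, against 250.2, 307 and 198 CPM in the BPA CC (log2 fold change 1.28, SE 0.16, adjusted p = 0.0029). RPL38 and RPS15 had log2 fold changes of 1.25 and 1.12. Against these, RPS15A had 1019, 1003 and 1153 CPM in the TBBPA CC, against 2318, 2339.8 and 2156 CPM in the BPA CC (log2 fold change −1.103, SE 0.11, adjusted p = 0.00179), with each set within a narrow range. After TMM, 2 genes were higher and 2 lower, rps20 falling just under 2-fold at 0.98 and RPS15A at −1.33. Outside the lists, tmsb4x, an actin-binding thymosin, was higher with 1014, 1011 and 1185 CPM in the TBBPA CC, against 532, 417 and 419 CPM in the BPA CC (log2 fold change 1.24, SE 0.13, adjusted p = 0.00179), and the linker histone gene histh1l1, with 731, 720.1 and 765 CPM in the TBBPA CC, against 357, 356 and 344 CPM in the BPA CC (log2 fold change 1.07, SE 0.09, adjusted p = 0.00153).

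In the lens, 2 crystallin genes lay in opposite directions. The gene crygm2d9, a gamma crystallin of the fish lens, had the most negative log2 fold change of the called genes, with 28.5, 38.2 and 26.8 CPM in the TBBPA CC, against 115, 375 and 97.3 CPM in the BPA CC (log2 fold change −2.37, SE 0.42, adjusted p = 0.00811). Its relative crygm2d20 was among the largest increases, with 24.2, 28.2 and 19.3 CPM in the TBBPA CC, against 3.45, 9.03 and 1.88 CPM in the BPA CC (log2 fold change 2.43, SE 0.42, adjusted p = 0.00764). BPA CC replicate 2 was the highest BPA CC library for both. Both genes were named from calls whose libraries did not overlap between the sets. These copies are near-identical members of a large family, so their levels may depend on how reads shared between copies were counted. In the lens list, which holds neither, 1 of 25 tested genes was called, a share near the 3.78% of all tested genes: MIP (ENSDARG00000013963), the lens water channel, with 92.1, 112 and 119.7 CPM in the TBBPA CC, against 45.2, 51.6 and 40.1 CPM in the BPA CC (log2 fold change 1.23, SE 0.14, adjusted p = 0.00233). The abundant CRYBB1 had 1689, 1827 and 1127 CPM in the TBBPA CC, against 2616, 4591 and 2157 CPM in the BPA CC, without overlap and just under 2-fold (log2 fold change −0.97, SE 0.27, adjusted p = 0.042). Without BPA CC replicate 2, 3 lens genes were called higher, and without BPA CC replicate 3, 1 higher and 3 lower. After TMM, 1 was higher and 2 lower.

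Of 24 tested skin genes, 6 were higher, against 3.36% of all tested genes, with a median of 0.45. After TMM, 4 were higher and 1 lower, with a median of 0.26, and edgeR, DESeq2 and limma-voom each called 3 higher and 1 lower. The epidermal ictacalcins, calcium-binding proteins of the S100 family, had the largest changes, with 82.8, 80.2 and 106 CPM in the TBBPA CC, against 29.0, 16.6 and 24.6 CPM in the BPA CC for icn2 (log2 fold change 1.94, SE 0.20, adjusted p = 0.00179) and 136, 131 and 196 CPM in the TBBPA CC, against 65.2, 32.6 and 47.7 CPM in the BPA CC for icn (log2 fold change 1.69, SE 0.24, adjusted p = 0.00384). Keratin krt17 had 419, 555 and 610.5 CPM in the TBBPA CC, against 273, 126 and 363 CPM in the BPA CC (log2 fold change 1.16, SE 0.32, adjusted p = 0.04), and the tight-junction gene cldni 4.58, 8.55 and 10.8 CPM in the TBBPA CC, against 3.31, 1.27 and 2.60 CPM in the BPA CC (log2 fold change 1.54, SE 0.37, adjusted p = 0.0229). BPA CC replicate 2 was the lowest library for all 4. Without it, 3 skin genes were called, and without BPA CC replicate 3, 10. The most abundant keratins krt91 and cyt1 had log2 fold changes of 0.13 and 0.17 and overlapped.

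Xenobiotic genes handle foreign compounds, and 5 of 32 tested were higher, against 3.36% of all tested genes, with a median of 0.61 (0.41 after TMM, with 2 higher). The largest was cyp1a, the classic target of the aryl hydrocarbon receptor, with 15.5, 20.1 and 13.1 CPM in the TBBPA CC, against 3.71, 4.66 and 6.11 CPM in the BPA CC (log2 fold change 1.66, SE 0.23, adjusted p = 0.00361). The cytochrome P450 gene cyp2ad2 had 43.2, 33.9 and 34.9 CPM in the TBBPA CC, against 11.8, 12.8 and 14.5 CPM in the BPA CC (log2 fold change 1.48, SE 0.15, adjusted p = 0.00179). UGT1A1, a conjugating enzyme, had 37.8, 40.8 and 38.0 CPM in the TBBPA CC, against 15.6, 18.5 and 19.8 CPM in the BPA CC (log2 fold change 1.096, SE 0.14, adjusted p = 0.0029). The receptor's repressor ahrra, another of its targets, had 3.05, 3.59 and 3.43 CPM in the TBBPA CC, against 4.11, 4.23 and 3.63 CPM in the BPA CC, without overlap and in the direction opposite to cyp1a, but was not called (log2 fold change −0.22, adjusted p = 0.485). For tiparp, also a target, the sets overlapped, at 15.9, 17.6 and 17.5 CPM in the TBBPA CC, against 18.8, 15.7 and 17.8 CPM in the BPA CC. Both ahrra and tiparp were chosen from the list after their values were seen, and receptor activity was not tested. Of the 32 tested members, 28 had a positive log2 fold change. Without overlap, 20 were higher and only ahrra was lower, where 40.3% of all tested genes did not overlap. The most abundant member, cyp3a65, had 261, 232 and 231 CPM in the TBBPA CC, against 106, 212 and 184 CPM in the BPA CC (log2 fold change 0.59, adjusted p = 0.0966). Between 3 and 8 members were called with 1 library left out.

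Of 25 immediate early genes, which respond to stimuli within minutes, 4 were higher, against 3.36% of all tested genes, with a median of 0.54. The phosphatase gene DUSP1 had 68.1, 69.5 and 54.1 CPM in the TBBPA CC, against 15.1, 22.2 and 25.5 CPM in the BPA CC (log2 fold change 1.61, SE 0.19, adjusted p = 0.00267), and JUND, a subunit of AP-1, 62.0, 77.5 and 71.6 CPM in the TBBPA CC, against 33.0, 25.8 and 33.0 CPM in the BPA CC (log2 fold change 1.19, SE 0.14, adjusted p = 0.00267). The zinc finger gene egr4 had 30.3, 33.4 and 26.4 CPM in the TBBPA CC, against 7.56, 16.5 and 17.4 CPM in the BPA CC (log2 fold change 1.17, SE 0.28, adjusted p = 0.0234). The most abundant members, ppp1r15a and JUN, had log2 fold changes of −0.31 and 0.33 and were not called. The count was 2 after TMM, 2 without TBBPA CC replicate 1 or 2 or BPA CC replicate 1, and 8 without BPA CC replicate 3. In the stress list 1 of 24 genes was called, also near the 3.78% of all tested genes: the transcription factor gene atf4b, at 18.3, 17.9 and 22.4 CPM in the TBBPA CC, against 7.96, 5.36 and 6.72 CPM in the BPA CC (log2 fold change 1.49, SE 0.19, adjusted p = 0.00291).

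In 7 further lists 1 to 3 genes were called, against 3.78% of all tested genes, and several of these counts were lower after TMM. The share called ran from 1 of 18 tested genes in the glia list to 2 of 9 in the swim bladder list. Of 25 tested genes of the fasting list 3 were higher. The gene pck2, the mitochondrial phosphoenolpyruvate carboxykinase of glucose synthesis, had 23.4, 24.9 and 31.3 CPM in the TBBPA CC, against 8.75, 9.59 and 10.4 CPM in the BPA CC (log2 fold change 1.42, SE 0.16, adjusted p = 0.00237). The growth factor-binding gene igfbp1b had 24.2, 15.6 and 14.6 CPM in the TBBPA CC, against 7.03, 7.90 and 7.14 CPM in the BPA CC (log2 fold change 1.21, SE 0.21, adjusted p = 0.00766). Neither overlapped. The third was fbp1b, a fructose bisphosphatase of glucose synthesis, with a log2 fold change of 1.03. Of 13 tested erythrocyte genes, the near-identical hbae1.1 and hbae1.2 were higher, hbae1.1 with 9.79, 6.12 and 4.38 CPM in the TBBPA CC, against 0.928, 1.83 and 2.54 CPM in the BPA CC (log2 fold change 1.68, SE 0.35, adjusted p = 0.0157), while the abundant hbae3 overlapped. In the ionocyte and pronephros list, the carbonic anhydrase gene ca15a had 14.2, 15.2 and 13.5 CPM in the TBBPA CC, against 4.64, 5.08 and 7.02 CPM in the BPA CC (log2 fold change 1.303, SE 0.20, adjusted p = 0.0048), and 2 of 21 others, the anion exchanger SLC4A2 (ENSDARG00000052330) and the calcium channel TRPV6, were higher by log2 1.15 and 1.15. Of 23 tested intestine genes, the adenosine deaminase gene ADA and the chitinase gene chia.6 were higher, by log2 1.098 and 1.17. The ileal bile acid-binding protein gene fabp6 was lower, with 362, 394 and 487 CPM in the TBBPA CC, against 879.8, 791 and 817 CPM in the BPA CC (log2 fold change −1.01, SE 0.13, adjusted p = 0.0029), just past 2-fold. It was under 2-fold without TBBPA CC replicate 1 or 2 or BPA CC replicate 1, down to −0.92. Of 11 xanthophore and iridophore genes 1 was called, XDH, a xanthine dehydrogenase of purine breakdown, with 15.1, 10.6 and 8.76 CPM in the TBBPA CC, against 2.25, 3.81 and 5.63 CPM in the BPA CC (log2 fold change 1.49, SE 0.31, adjusted p = 0.0155). Of 18 glia and myelin genes, 1 copy of the fatty acid-binding gene FABP7 (ENSDARG00000034650) was higher by log2 1.095, while the far more abundant copy (ENSDARG00000007697) overlapped with 374, 387 and 466 CPM in the TBBPA CC, against 493, 395 and 431 CPM in the BPA CC. Of 9 swim bladder and mucus cell genes, the mucin muc5.2 and AGR2, which assists mucin folding, were higher by log2 1.02 and 1.21. After TMM, no intestine or glia gene and 1 gene each of the fasting, ionocyte, erythrocyte, swim bladder and xanthophore lists were called higher. With edgeR no glia or swim bladder gene was called. With 1 library left out, these lists had between 0 and 4 genes called higher.

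Of the 77 genes called lower, 6 were in a list (7.79%), against 740 of all tested genes (4.03%): the 4 mitochondrial genes, RPS15A and fabp6. The largest log2 decrease after crygm2d9 was that of lrrc38a, of a leucine-rich repeat family, with 0.381, 1.37 and 2.01 CPM in the TBBPA CC, against 6.63, 3.95 and 5.93 CPM in the BPA CC (log2 fold change −1.87, SE 0.39, adjusted p = 0.0142). The membrane-bound growth cone gene basp1 had 32.5, 31.0 and 47.5 CPM in the TBBPA CC, against 123, 87.3 and 133 CPM in the BPA CC (log2 fold change −1.62, SE 0.20, adjusted p = 0.00285). For mansc1 the levels were 25.8, 20.9 and 20.7 CPM in the TBBPA CC, against 75.4, 55.3 and 75.8 CPM in the BPA CC (log2 fold change −1.59, SE 0.16, adjusted p = 0.00179), and for ST7 (ENSDARG00000039960) 6.36, 7.71 and 5.80 CPM in the TBBPA CC, against 17.1, 19.05 and 16.9 CPM in the BPA CC (log2 fold change −1.36, SE 0.17, adjusted p = 0.0029). These genes were named from calls whose libraries did not overlap, so the lack of overlap was fixed by the choice. The homeobox genes hoxb1b and hmx4, of hindbrain and sensory patterning, had log2 fold changes of −1.41 and −1.36, from under 10 CPM in every library. The other named decreases were si:dkeyp-34c12.1, si:dkeyp-93h6.3, CWC15, a splicing factor, and adgre10, with log2 fold changes from −1.59 to −1.39. Among the named increases not yet given, si:dkeyp-73d8.6, si:ch211-212c13.8 and si:dkey-52d15.3 had log2 fold changes of 2.61, 2.35 and 2.27.

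In 21 of the 38 lists with tested members no gene was called. None of 26 fast muscle, 8 slow muscle or 8 heart genes was, with medians of 0.07, −0.12 and 0.09, and neither were 37 photoreceptor genes (median 0.22) and 34 neuronal genes (median 0.03). After TMM the medians of fast muscle, heart and neurons were below 0, at −0.15, −0.11 and −0.20, that of photoreceptors was −0.004, and 2 fast muscle genes and 1 gene each of the slow muscle, photoreceptor and neuron lists were called lower. Without BPA CC replicate 2 the medians were 0.21 for fast muscle, 0.06 for slow muscle, 0.21 for heart, 0.36 for photoreceptors and −0.12 for neurons, against 0.12 for all tested genes. None of 31 cell cycle genes was called (median 0.26). None of 12 tested activators and 28 repressors and outputs of the circadian clock was called. BHLHE40, a clock repressor, had 631, 612 and 566 CPM in the TBBPA CC, against 413, 441 and 482 CPM in the BPA CC (log2 fold change 0.44, SE 0.10, adjusted p = 0.0242), and the nuclear receptor gene NR1D1 443, 423 and 379 CPM in the TBBPA CC, against 414, 467 and 561 CPM in the BPA CC (adjusted p = 0.293). None of 17 exocrine pancreas genes was called with all 6 libraries, but trypsinogen prss1 had 191, 141 and 107 CPM in the TBBPA CC, against 134, 487 and 68.3 CPM in the BPA CC, and 6 members were higher without BPA CC replicate 2. Nor was any of 6 endocrine pancreas, 12 pigment epithelium and melanophore, 17 cartilage and bone, 12 endothelial, 5 lymphocyte and 2 pituitary genes called, or any of 23 cholesterol synthesis, 19 fatty acid synthesis and 15 glucocorticoid target genes, with medians from −0.43 for the pituitary to 0.33 for the endothelium. With 1 library left out, at most 3 genes of any of the 21 lists other than the exocrine pancreas were called. With 3.78% of all tested genes called, a count of 0 is near that share in lists of these sizes. It does not show that the genes of a list were alike in the 2 sets.

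At the threshold itself, the named genes just inside were si:dkey-196j8.2, with 6.23, 6.55 and 5.09 CPM in the TBBPA CC, against 2.78, 1.98 and 3.57 CPM in the BPA CC, and TMEM126A, with 20.0, 20.9 and 21.2 CPM in the TBBPA CC, against 8.09, 10.3 and 12.3 CPM in the BPA CC. Just outside were sult3st3, with 4.20, 4.43 and 3.31 CPM in the TBBPA CC, against 1.19, 2.12 and 2.00 CPM in the BPA CC, and CR626884.6, with 16.5, 20.6 and 18.1 CPM in the TBBPA CC, against 12.2, 5.64 and 10.23 CPM in the BPA CC. The libraries of the 2 sets did not overlap in any of these 4 genes, against 40.3% of all tested genes. They were picked for a change near 2-fold, which favors a lack of overlap.

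The differences between the CC sets were also measured in larvae that had been exposed to the lowest concentrations. The CC comparison did not use these libraries, but they may share clutches and exposure runs with the CC of their series. They cannot be taken as an independent repeat of the CC comparison. At 0.000292 µM TBBPA over 0.00483 µM BPA, 617 of 18351 genes (3.36%) were called, with 2.88% higher and 0.48% lower, and 306 of them were among the 695, which is 44.0% of the CC list and 49.6% of the other. At 0.00292 µM TBBPA over 0.0483 µM BPA, 876 of 18378 genes (4.77%) were called, with 4.33% higher and 0.435% lower, and 407 were shared, 58.6% of the CC list and 46.5% of the other. Of the 681 and 679 CC genes tested there, 677 and 676 had the same sign, and 236 were called in all 3 comparisons. The share with the same sign over all tested genes was not taken. The median of all tested genes was also above 0 there, at 0.19 and 0.22, which favors the same sign for genes called higher. Over the 695 genes, the median size of the log2 fold change was 1.198 in the CC, and in the CC direction 0.99 and 1.09 in the exposed larvae. Here the chemicals and concentrations also differ.

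Within each series, the lowest concentration was also set against its own CC. The limma test called 0 of 18631 genes (0.0%) for 0.000292 µM TBBPA over the TBBPA CC, with 660 at an unadjusted p under 0.05, and edgeR also called 0. For 0.00483 µM BPA over the BPA CC it called 0 of 17991 (0.0%), with 156 at an unadjusted p under 0.05, and edgeR called 0. A test over all 12 libraries of whether the series difference was another in the CC than at the lowest concentration was added after the data were seen. It called 0 of 18128 genes at an adjusted p under 0.05, with 191 at an unadjusted p under 0.05. Of the 681 CC genes tested, 29 were among the 191, a larger share than over all genes. The CC libraries that chose these genes are also part of this test, which favors a larger share, so nothing is read from it. The count of 0 does not show that the differences were equal.

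**Figure D5:**
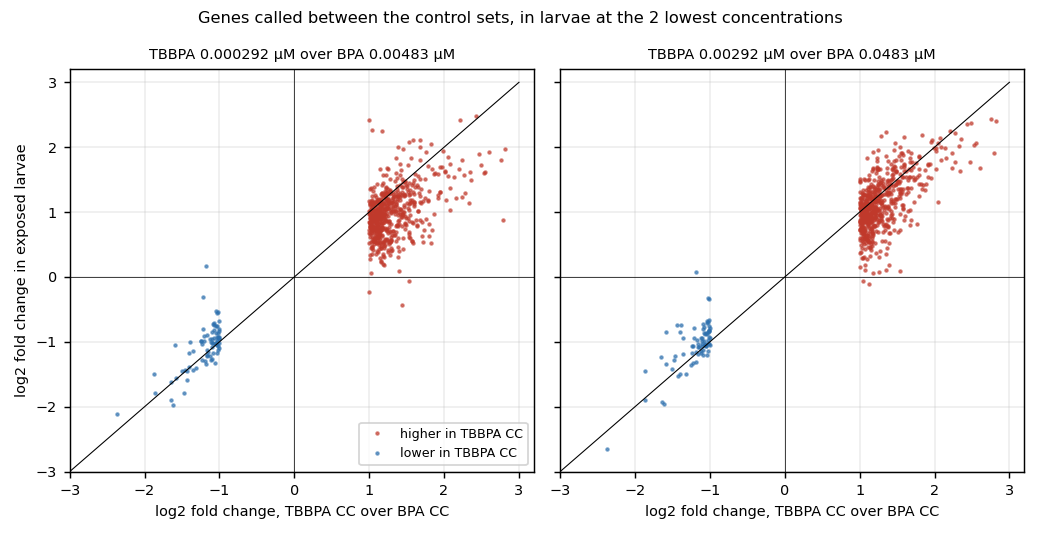
Log2 fold changes of the genes called between the control sets (x axis, TBBPA CC over BPA CC) against those of the same genes in larvae at the lowest (left) and second-lowest (right) concentrations, TBBPA over BPA. Each point is a gene, red where it was higher and blue where it was lower in the TBBPA CC, and the line marks equal changes; all but 4 and 3 points keep their sign.

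The study's methods describe the replicates as separate repeats of the sampling procedure. Exposed libraries of a series may therefore share clutches and exposure runs with each other and with the CC of that series. The 15 exposed libraries of a series cannot be taken as 15 independent samples. Across the whole dose range, 276 of the 695 genes (39.7%) kept all 15 exposed TBBPA libraries on the same side of all 15 exposed BPA libraries, against 1550 of all 18376 tested genes (8.43%). The rest of the 695 did not. The range reaches 2.92 µM TBBPA and 48.3 µM BPA, so these values may also carry effects of the chemicals. The genes given below all separated, so they do not stand for the 695. MT-ND6 was one of the 276, with 819.6 to 1139 CPM (median 937) in the 15 exposed TBBPA libraries, against 2973 to 4837 CPM (median 3496) in the 15 exposed BPA libraries. For MT-ND3, which was not among the 695, the ranges were 384 to 553 CPM (median 429) in the 15 exposed TBBPA libraries, against 182 to 315 CPM (median 252) in the 15 exposed BPA libraries, the reverse order. RPS15A had 949.9 to 1109 CPM (median 999.9) in the 15 exposed TBBPA libraries, against 1938 to 3322 CPM (median 2418) in the 15 exposed BPA libraries, and rps20 1121 to 1541 CPM (median 1221) in the 15 exposed TBBPA libraries, against 465 to 718 CPM (median 512) in the 15 exposed BPA libraries. The crystallins kept their opposite directions, crygm2d9 at 20.0 to 50.9 CPM (median 34.5) in the 15 exposed TBBPA libraries, against 60.4 to 317 CPM (median 164) in the 15 exposed BPA libraries and crygm2d20 at 12.5 to 47.1 CPM (median 24.6) in the 15 exposed TBBPA libraries, against 1.32 to 11.2 CPM (median 5.56) in the 15 exposed BPA libraries. Hepcidin hamp had 4.93 to 11.7 CPM (median 8.56) in the 15 exposed TBBPA libraries, against 0.660 to 4.04 CPM (median 1.97) in the 15 exposed BPA libraries, and cyp1a 12.3 to 25.3 CPM (median 17.4) in the 15 exposed TBBPA libraries, against 0.637 to 6.59 CPM (median 4.78) in the 15 exposed BPA libraries.

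The liver genes varied more with the group. At the lowest concentrations the median of the liver list was 0.60 with 5 of 25 called higher, against a median of 0.19 and 2.88% of all tested genes. At the second-lowest the median was 1.41 with 18 called higher, against 0.22 and 4.33% of all tested genes. The summed list was 1903 to 3589 CPM in the larvae at 0.000292 µM TBBPA, against 2174 to 5096 CPM in those at 0.00483 µM BPA. At the next concentration it was 2913 to 3649 CPM in the larvae at 0.00292 µM TBBPA, against 1890.2 to 2795 CPM in those at 0.0483 µM BPA. Acute phase and complement genes had medians of 0.83 and 1.33, with 6 and 16 of 22 called higher, against the same shares of all tested genes. For SERPINC1 the log2 fold changes were 0.87 and 1.91, against 2.79 in the CC. FGG had 1.62 and 2.06, against 2.55 in the CC. The mitochondrial list was steadier, with medians of −0.88 and −0.95, against −0.82 in the CC. In it 4 and 5 genes were called lower, against 0.48% and 0.435% of all tested genes.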

How the data were processed

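RNA of pools of 20 larvae was sequenced after a stranded mRNA kit. Trimming by the authors used cutadapt, and both alignment to GRCz11 and counting per gene used STAR (versions not given in the sources used here, credited to the submitters' processing notes). The deposited values of both tables are a signal: counts divided by the DESeq2 size factor of each library, normalized by the authors separately for each chemical. Values of each library were checked to be whole multiples of 1 step, within 0.01, and 100% came out as whole reads. In 1 library of each series, neither a CC, the step was so near 1 that rounding could give the same. Dividing by the library total over the 25531 shared genes gives CPM and cancels the size factor exactly. Replicates within a group differed by more than sampling noise.

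Differences were tested with limma 3.58.1 in R 4.3.3 (lmFit, eBayes with a trend) on log2(CPM + 0.5), genes with a mean of at least 1 CPM, Benjamini-Hochberg (BH) adjusted p under 0.05 and 2-fold, over the 2 groups compared, with no block. The sources do not say that same-numbered replicates of the 2 series share a clutch. Within a series the same test was kept so that counts could be set side by side, although the study's own model included the replicate. A replicate block there also called 0 genes. Deviations of same-numbered CC libraries correlated at −0.21, −0.06 and 0.13. Alternatives used edgeR 4.0.16, DESeq2 1.42.0 and limma-voom on the recovered reads, TMM scaling, other pseudocounts and filters, and left out each library. In simulated CC libraries with 200 changed genes among 18336, limma recovered 94.5% and 1.05% of its calls were false. Every planted change was well past 2-fold, all genes had the same extra spread between libraries, and no library stood apart. The CC libraries differ from this setting, so these shares do not carry over to the calls between the CC sets. P-values measure the spread between these libraries only.

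Named genes were the 25 most abundant, the 15 largest changes and 5 most abundant calls in each direction among named genes whose libraries did not overlap, up to 6 calls and the 2 most abundant members of each list, and those nearest 2-fold. Of these, 2 genes are not reported here. Genes named beyond this rule are members of the fixed lists and were chosen after their values were seen. The members and the 39 lists were chosen with earlier results of these data known. Of 898 listed genes, 805 matched an ID. The rule matching capital symbols to zebrafish copies was set after the names were seen. Names came from a reference table of another assembly and from the study's supplement. No sequence, coordinate or gene length was used. Figures were drawn with matplotlib 3.10.9.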

Additional observations from a re-analysis of the deposited data

How the results depend on the processing

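The count of 695 genes between the CC sets moved with the low-value settings and the threshold. It was 312 with a pseudocount of 2 CPM, 283 among genes with a mean of at least 10 CPM, 2201 at 1.5-fold and 0 for a test of a change over 2-fold, and lay between 257 and 1080 with 1 library left out. It was within 1.5 times under the other settings: 654 with a replicate block, 650 with edgeR, 576 with DESeq2, 630 with limma-voom, 813 with a pseudocount of 0.1 CPM, 722 with no filter, 523 on the TMM scale, 573 on a total without mitochondrial and the 25 most abundant genes, and 748 with all 36 libraries in the fit. The share of higher calls was 88.9% on the CPM scale and 57.9% on the TMM scale. Counts at the 2 lowest concentrations stayed within 1.5 times, and the counts of 0 within each series stayed 0 under each of their alternatives, the replicate block among them. The block changed no other count by that much, and since same-numbered libraries did not deviate together, numbers were not taken to pair them. Of the 83 named genes that were called, 39 kept their call under every alternative at 2-fold, and none of the named genes reversed. The share of reads in the 25 most abundant genes averaged 22.9%, and 20.8% in the TBBPA CC and 25.03% in the BPA CC alone. Levels per kilobase were not run, since no coding lengths were at hand. Depth limits genes near 1 CPM: 3 reads came to 0.182 to 0.423 CPM in a CC library, for counting error only.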
